A study of Mus musculus with 5 samples.

Results

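The glutamate receptor genes of the mouse and the genes of their auxiliary subunits were examined for binding of NEUROD2 in the cerebral cortex of newborn mice. The set held 30 of the 21938 protein-coding genes of the annotation, and its members were taken by gene family, with no measured value in the rule but with earlier results of these data known. They were 4 AMPA receptor genes (Gria1 to Gria4), 7 NMDA receptor genes (Grin1, Grin2a to Grin2d, Grin3a and Grin3b), 5 kainate receptor genes (Grik1 to Grik5), the delta receptor gene Grid1, 7 metabotropic receptor genes (Grm2 to Grm8) and 6 genes of auxiliary subunits (Neto1, Neto2, Cnih2, Cnih3, Shisa6 and Shisa9). For each gene, all peaks that touched the gene body or the 10 kb on either side of it were counted, and this stretch is called the window of the gene.

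Chromatin immunoprecipitation followed by sequencing (ChIP-Seq) recovers the DNA fragments that a protein is bound to and places them on the genome. The tissue was cerebral cortex of untreated wild-type BALB/c pups at postnatal day 0, pooled from littermates, and the antibodies against NEUROD2, numbered as in the labels, were ab168932 (antibody 1), ab104430 (antibody 2) and ab109406 (antibody 3), with 1 library each. An antibody against GFP, a protein these mice do not make, gave the control library for peak calling. No gene was altered and no condition was varied, so the comparisons are between genes and between antibodies, and the cortex holds several cell types whose contributions to a peak cannot be told apart. The lists held 5202 peaks of antibody 1, 11196 of antibody 2 and 3164 of antibody 3, each with a MACS score, which is minus 10 times the log10 of the p of the peak and started at 50. A deposited table listed 2071 shared sites, stretches of DNA with a peak of every antibody. The lists give no read counts, so the depth of the libraries is unknown, and the sources do not say whether the antibodies were used on different pools, so the spread between antibodies may be technical.

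Glutamate is the main excitatory transmitter of the cortex. Ionotropic glutamate receptors (AMPA, NMDA, kainate and delta) are tetramers of subunits that form, or are related to those that form, an ion channel, whereas metabotropic receptors signal through G proteins. Auxiliary subunits bind to AMPA or kainate receptors and alter their trafficking and gating. NEUROD2 is a basic helix-loop-helix transcription factor of excitatory cortical neurons, and factors of this family bind E-boxes, which have the letters CANNTG and read the same on both strands as a pattern.

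Of the 30 genes, 8 had a shared site in the window and together they had 12 sites. The DNA of the highest scoring site of each subfamily that had one is shown for the E-boxes it holds. The sequences below are 150 bp from the middle of each site in the GRCm38 (mm10) reference, with E-boxes in capitals, and for Grin1 the longest stretch of the site that is free of annotated UTR. The kainate sequence is from the first of the Grik4 sites described below.
Grm7, intron (chr6:111373162-111373311, plus strand): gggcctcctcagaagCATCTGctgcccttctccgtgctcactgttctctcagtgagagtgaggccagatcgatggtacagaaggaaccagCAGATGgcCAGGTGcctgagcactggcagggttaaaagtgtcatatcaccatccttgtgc
Grin1, at the start of the gene (chr2:25318419-25318568, plus strand): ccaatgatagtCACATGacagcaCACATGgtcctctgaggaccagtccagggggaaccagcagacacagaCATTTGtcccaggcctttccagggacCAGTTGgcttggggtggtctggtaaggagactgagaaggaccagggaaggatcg
Grid1, intron (chr14:35139999-35140148, plus strand): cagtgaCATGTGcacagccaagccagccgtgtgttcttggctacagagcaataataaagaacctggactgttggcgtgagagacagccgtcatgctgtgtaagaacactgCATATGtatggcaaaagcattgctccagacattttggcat
Grm2, upstream of the gene (chr9:106664459-106664608, plus strand): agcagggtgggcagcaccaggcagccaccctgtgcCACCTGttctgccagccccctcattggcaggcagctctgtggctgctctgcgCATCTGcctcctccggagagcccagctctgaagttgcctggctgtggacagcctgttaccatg
Grik4, intron (chr9:42530178-42530327, plus strand): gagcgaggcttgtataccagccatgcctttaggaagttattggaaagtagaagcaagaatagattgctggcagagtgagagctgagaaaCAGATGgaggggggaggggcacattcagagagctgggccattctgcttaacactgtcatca
Cnih2, intron (chr19:5096216-5096365, plus strand): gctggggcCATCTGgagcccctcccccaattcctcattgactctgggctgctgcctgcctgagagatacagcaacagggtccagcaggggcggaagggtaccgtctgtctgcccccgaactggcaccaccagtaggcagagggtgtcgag
A further pair of stretches was added after the values had been seen, since Grid1 had the most sites and Grin2a holds a close pair of E-boxes.
Grid1, intron, next highest site (chr14:34944729-34944878, plus strand): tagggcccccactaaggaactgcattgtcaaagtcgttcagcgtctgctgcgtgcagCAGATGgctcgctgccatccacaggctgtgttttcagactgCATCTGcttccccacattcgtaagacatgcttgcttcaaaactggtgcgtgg
Grin2a, intron (chr16:9735367-9735516, plus strand): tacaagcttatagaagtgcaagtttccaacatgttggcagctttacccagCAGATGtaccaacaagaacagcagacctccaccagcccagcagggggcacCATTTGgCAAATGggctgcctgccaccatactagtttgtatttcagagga
The Grm7 stretch holds 3 E-boxes, of which CATCTG and its reverse complement CAGATG are the same E-box read on opposite strands. This form is also present in the Grm2, Grik4, Cnih2 and Grin2a stretches and occurs in the added Grid1 stretch on both strands. The stretch from the highest Grid1 site holds CATGTG and, farther on, CATATG, whereas the Grin1 stretch holds 4 E-boxes, of which 2 are CACATG. All 4 lie inside the site but before the start of its antibody 1 peak, and both CACATG also lie before its antibody 3 peaks, under the peak of antibody 2 alone.

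Antibody 1 gave a peak at 15 of the 30 genes (50%), against 15.4% of all protein-coding genes. Antibody 2 gave a peak at 21 (70%), against 33.2% of all genes, and antibody 3 at 11 (36.7%), against 11.1%. Peaks of every antibody were present at 9 genes, against 8.19% of all genes. A shared site lay in the window of 8 genes (26.7%), against 7.49% of all genes, and in the gene body alone in 6, against 5.17% of all genes and 5.58 genes from those of similar length, a comparison described next. These percentages compare genes of very unequal length. The median length of the 30 genes was 232 kb, with a range from 5.65 kb (Cnih2) to 922 kb (Grm7), whereas that of all protein-coding genes was 17.4 kb.

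Longer genes held more sites in the genome as a whole. A shared site was present at 4.99% of genes shorter than 20 kb, at 14.6% of genes of 100 to 200 kb and at 38.7% of genes longer than 500 kb. Each of the 30 genes was therefore set beside the 200 other genes closest in length, 100 shorter and 100 longer, with fewer longer ones for Grm7 and Grm8. The genes set beside Grm7, 170 in number, ran from 573 to 4435 kb. Summed over the set, the shares of these genes of similar length gave 11.2 genes with a peak of antibody 1, 16.6 with a peak of antibody 2 and 8.29 with a peak of antibody 3, below the 15, 21 and 11 counted, and 6.86 with a peak of every antibody, below the 9 counted. For shared sites they gave 6.16 genes and 9.32 sites, against 8 genes and 12 sites. With antibody 3 left out, so that a site needed only antibodies 1 and 2, the set had 14 genes with a site against 9.49, and where each antibody needed a peak of at least 100 it had 4 against 3.40. The number of peaks was 23 against 22.3 for antibody 1, 52 against 44.5 for antibody 2 and 17 against 13.6 for antibody 3. Genes of similar length thus also lay well above the genome as a whole, and the counts of the set exceeded theirs by a few genes in each list. No test was made of this difference.

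**Figure D1:**
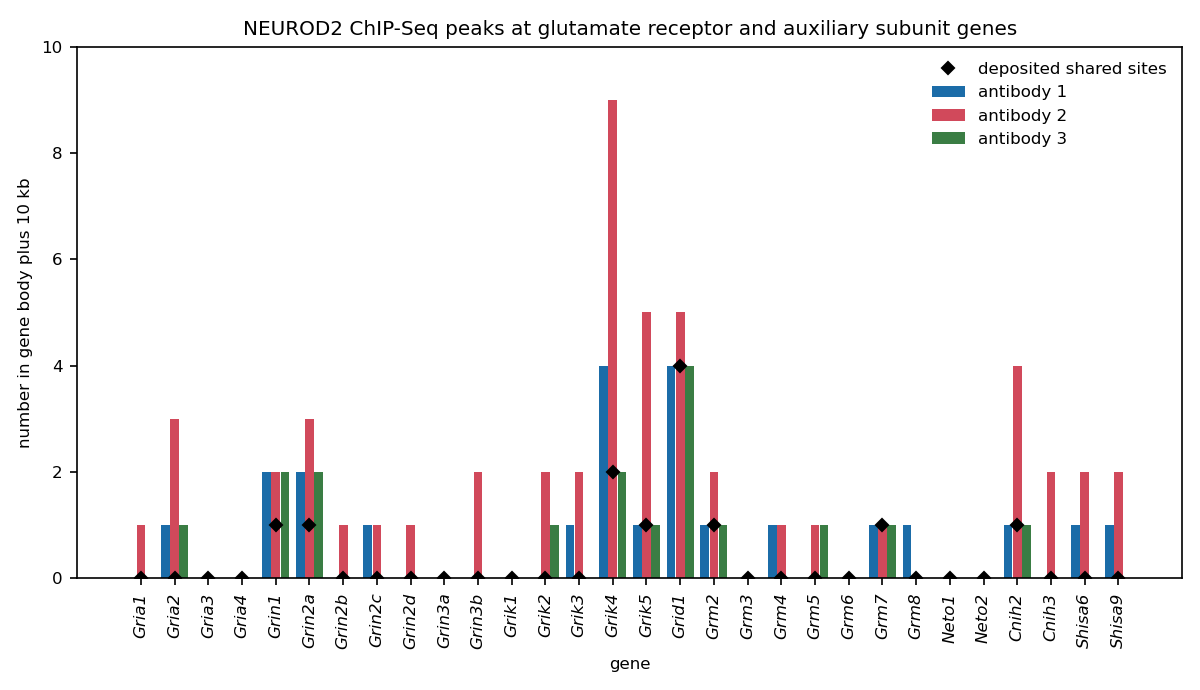
Number of peaks of each antibody (bars) and of deposited shared sites (diamonds) in the gene body plus 10 kb of each of the 30 genes, ordered by family along the horizontal axis. Grik4 has the most peaks, 9 of antibody 2, and Grid1 the most shared sites, 4, while 8 genes have neither peaks nor sites.

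The members with sites were not simply the longest ones. Of the 5 members shorter than 20 kb, 2 had a shared site in the window (Cnih2 and, outside the gene body, Grm2). Of the 5 longer than 500 kb, 2 had one (Grid1 and Grm7). None of the 4 members of 100 to 200 kb and 2 of the 11 members of 200 to 500 kb (Grik4 and Grin2a) had one, where 14.6% and 24.2% of all genes of these lengths did. The 4 sites of Grid1 stood out most from genes of similar length, of which 3 of 200 (1.5%) had as many and the mean was 0.63. The 2 sites of Grik4 were matched or exceeded by 20 of 200 (10%). At least 1 site was present in 42.9% of the genes set beside Grm7 and in 32% of those beside Grin2a, but in 3% of those beside Grm2, 4.5% for Cnih2, 9% for Grik5 and 10.5% for Grin1. The sites counted for Grm2 and Grik5 lay outside these genes, and neither gene had a site in the gene body alone.

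**Figure D2:**
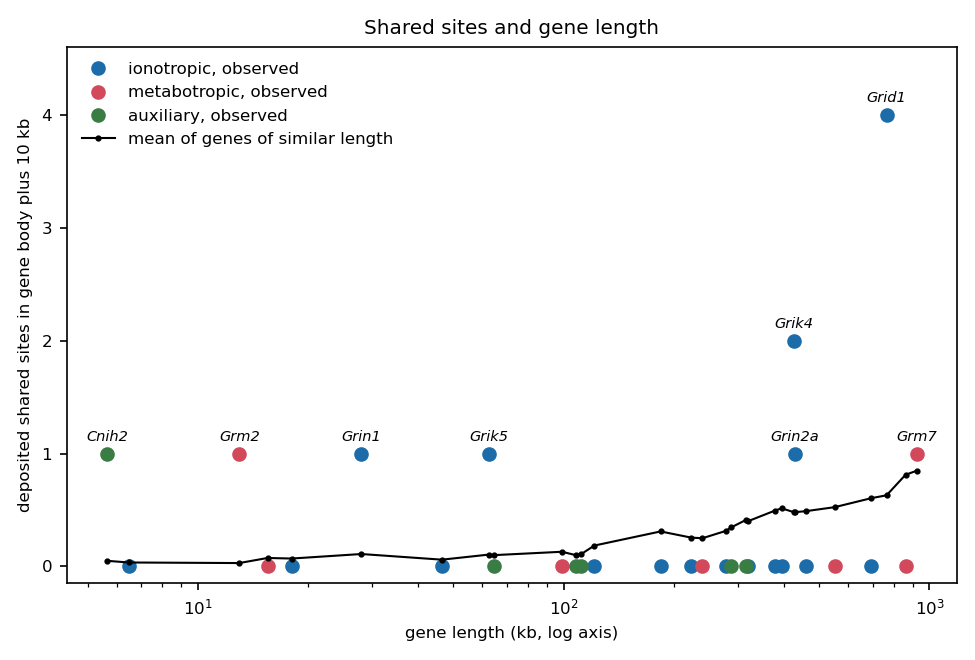
Deposited shared sites in the gene body plus 10 kb (vertical axis) against gene length in kb on a log axis, for the 30 genes by class (coloured points) and as the mean of the genes of similar length (black line). Grid1, with 4 sites at a mean of 0.63, and Grik4, with 2, lie farthest above the line, and most long members lie below it at 0.

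The delta receptor gene Grid1, whose product organises synapses and is related in sequence to the ion channels, had 4, 5 and 4 peaks of antibodies 1, 2 and 3 and all 4 shared sites in introns. Grid1 lies at chr14:34820108-35583379 on the plus strand and is 763 kb long. In the highest of its sites, at chr14:35139689-35140457 in intron 4 and 319965 bp from the closest start, the scores of antibodies 1, 2 and 3 were 514, 498 and 234. The next, at chr14:34944475-34945132 in intron 2, scored 368, 436 and 156. These 2 sites were 195 kb apart, and the score of every antibody was above 150 in both. The remaining sites were weaker, with 120, 162 and 89.4 at chr14:34839869-34840303 in intron 2 and 103, 54.8 and 121 at chr14:35154010-35154344 in intron 4. The last lay 13.6 kb from the highest site and was the only one of the 12 where antibody 3 scored highest. The promoter of Grid1 had a peak of antibody 2 alone, with a score of 58.7 and no E-box in its central 200 bp.

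The NMDA receptor genes differed widely among themselves. Grin1 encodes the subunit that every NMDA receptor contains, and its site at chr2:25318419-25319297 was the only shared site at the start of a member, 237 bp from a start and over exon 1. It scored 320, 847 and 216 with antibodies 1, 2 and 3, where the value of antibody 3 is the sum of 2 peaks of 103 and 113. The 847 of antibody 2 was the highest score of any antibody at the 30 genes. With 879 bp it was also the longest of the 12 sites, and its whole length held 12 E-boxes, of which 2 were in the central 200 bp.

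Grin2a encodes a glutamate-binding subunit whose expression rises after birth, and its shared site at chr16:9735282-9735600, in intron 3 and 257092 bp from the closest start, scored 122, 165 and 93.9. A second intronic region of Grin2a, at chr16:9688531-9688889, had peaks of antibody 1 (67.7) and antibody 2 (135). A peak of antibody 2 alone (120) lay at its promoter. Grin2c, a subunit known chiefly from the cerebellum, had antibody 1 (125) and antibody 2 (274) over its last exon, at chr11:115249659-115250241. The remaining NMDA genes had peaks of antibody 2 alone or none. Grin2b, which encodes the main glutamate-binding subunit of the newborn forebrain, had a promoter peak with a score of 65.8 and Grin2d one of 60.7. The pair of peaks near Grin3b (173 and 53.1) lay downstream of the gene, and the higher was 202 bp from a start of its neighbour Tmem259. Grin3a, 184 kb long, had no peak, where 55% of genes of its length had one of antibody 2.

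Among kainate receptor genes, Grik4 and Grik5, which encode the high-affinity subunits that need a partner to form a channel, held all shared sites. Grik4 had 4, 9 and 2 peaks of antibodies 1, 2 and 3. Its 9 peaks of antibody 2 stood beside a mean of 2.00 in genes of similar length, of which 2.5% had as many. Both shared sites lay at the distal end of the gene, 8.67 kb apart. The one at chr9:42529967-42530537 in intron 19 scored 72.2, 320 and 60.4, and the one at chr9:42520655-42521293 over the last exon, 287725 bp from the closest start in the annotation used here but classed as promoter by the authors, scored 52.6, 213 and 70.8. Antibody 2 therefore gave the bulk of the score at both, while antibodies 1 and 3 were close to the lower limit of the lists. Another region, at chr9:42550080-42550424, had antibodies 1 (52.7) and 2 (111), and 7 further regions had a peak of a single antibody between 52.0 and 89.2, of which 2 were at the promoter.

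Grik5 had 1, 5 and 1 peaks, and the 5 of antibody 2 stood beside a mean of 0.615 in genes of similar length, of which 1% had as many. Its only shared site lay outside the gene body, beyond its end, and is counted for Grik5 by position only. The other kainate genes had no shared site. Grik3 had a region of antibody 1 (86.4) and antibody 2 (145) in intron 1, at chr4:125584702-125585013, and a peak of antibody 2 at its promoter with a score of 191, the highest of the 37 regions with a single antibody. Grik2 had the only region of antibodies 2 (64.4) and 3 (86.0), in an intron at chr10:49560152-49560368. Grik1 had no peak in 394 kb, and 70.5% of genes of similar length had at least 1 of antibody 2.

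The AMPA receptor genes, which encode the subunits of the fast excitatory channels, had no shared site, where genes of similar length gave 1.40 sites. They had 1, 4 and 1 peaks of antibodies 1, 2 and 3, against 3.29, 6.67 and 2.05. Most of these were at Gria2, which encodes the subunit that limits calcium entry. Its promoter region, at chr3:80802727-80803046 and 51 bp from a start, had a score of 109 with antibody 1 and 77.0 with antibody 2, and no E-box in the central 200 bp. The peak of antibody 3 at Gria2 (62.1) was 1389 bp from the start at chr3:80801387-80801505, so that every antibody had a peak in the window but they did not share a site. Gria1 had 1 intronic peak of antibody 2 (92.6). No antibody gave a peak at Gria3 (278 kb) or Gria4 (378 kb), where 66% and 68.5% of genes of similar length had a peak of antibody 2.

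Metabotropic receptor genes held the shared site with the highest deposited score of the 12, and several windows with few peaks or none. Grm7, a group III receptor of presynaptic terminals, had 1 peak of each antibody, and they met in that site, at chr6:111373013-111373460. It scored 416, 739 and 269, and lay in intron 8 of a transcript with 10 exons, 727655 bp from the start of the gene and 122479 bp from the closest annotated start of one of its transcripts. Grm2, a group II receptor that dampens glutamate release, had a site at chr9:106664292-106664775 with scores of 314, 369 and 147. This site was 8451 bp upstream of Grm2 and inside Tex264, to which the authors assigned it, so that it is counted for Grm2 by position only.

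The other metabotropic genes had weak regions or none. Grm4 had a region of antibodies 1 (74.5) and 2 (154) in an intron, at chr17:27456349-27456752. Grm5, the group I receptor in the set, had a peak of antibody 3 (66.4) and one of antibody 2 (52.7) in different parts of the gene. Grm8, 860 kb long, had a single peak of antibody 1 (60.3) outside the gene, 2676 bp from the closest start of a coding transcript, and no shared site, which 42.5% of genes of similar length had. No peak was present at Grm3 or Grm6. In no metabotropic gene did a region lie within 1000 bp of a start.

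Of the 6 auxiliary subunit genes of the set, Cnih2, which encodes a cornichon protein that slows the closing of AMPA receptors, was the only one with a shared site. The gene is 5.65 kb long, and the site at chr19:5096001-5096580 in intron 1 scored 82.6, 192 and 57.7. Antibody 2 gave 3 further peaks in the window (114, 80.1 and 64.0), of which the last was at the start of the neighbour Rab1b, and 0.5% of genes of similar length had 4 peaks of this antibody. Shisa6 and Shisa9, which encode AMPA receptor binding proteins, each had an intronic region of antibodies 1 and 2. That of Shisa6, at chr11:66522297-66522769 and 3262 bp from a start, scored 133 and 351, the highest pair among the 9 regions of 2 antibodies, and that of Shisa9, at chr16:12114976-12115249, scored 55.5 and 76.5. Cnih3 had 2 peaks of antibody 2 (57.2 at the promoter and 81.4 in an intron). The kainate receptor auxiliary genes Neto1 and Neto2 had no peak of any antibody.

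**Figure D3:**
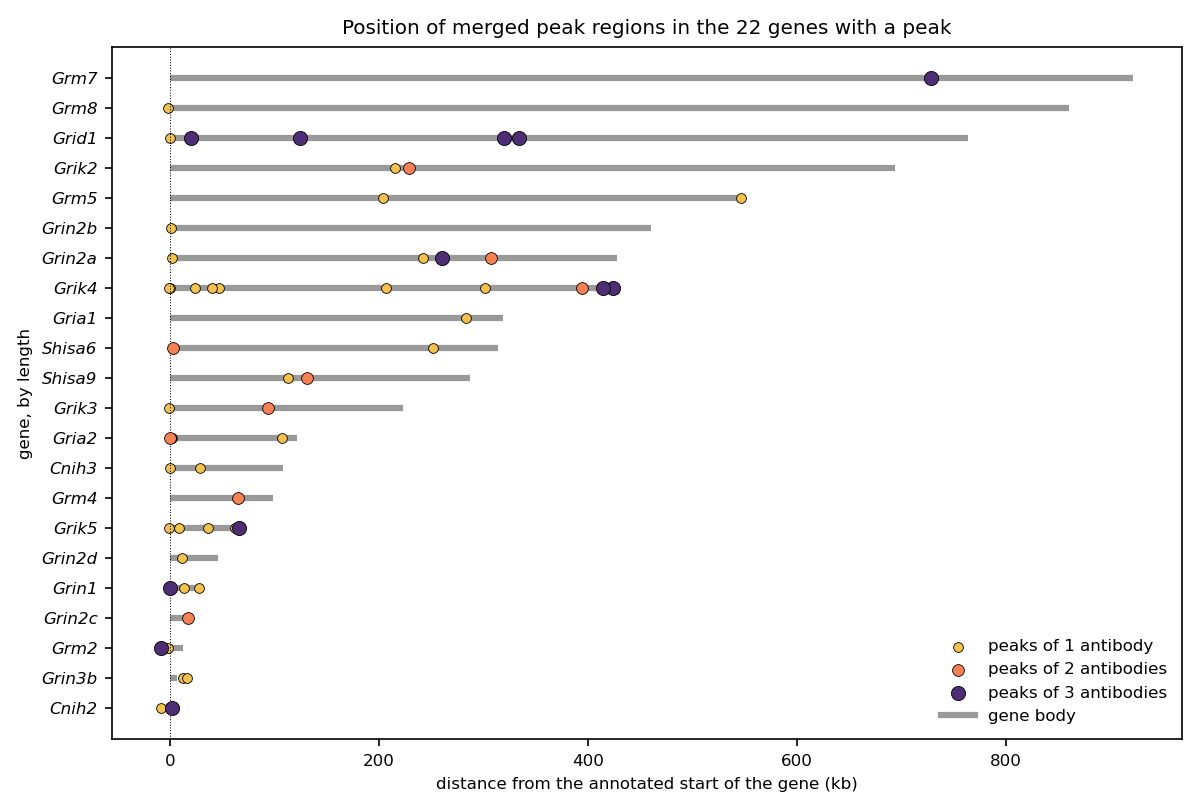
Position of the merged peak regions in the 22 genes with a peak, as distance from the annotated start in kb (horizontal axis), with genes ordered by length and the gene body as a grey bar. Points are coloured and sized by the number of antibodies with a peak, and regions of 3 antibodies lie at the start of Grin1, at several positions along Grid1, near the end of Grik4 and far from the start in Grin2a and Grm7.

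Merging overlapping peaks gave 58 regions at the 30 genes, of 12637 in the genome. Peaks of all antibodies met in 12 of them (20.7%, against 16.5% of all regions), of 2 antibodies in 9 (15.5%, against 19.8%) and of a single antibody in 37 (63.8%, against 63.7%). Antibody 2 alone made 31 regions (53.4%, against 52.2%). The way the antibodies shared regions was thus close to that of the genome. By position in the member, 33 regions (56.9%) lay in introns, 12 (20.7%) within 1000 bp of a start, 4 in exons and 9 outside the gene, and 4 of these 9 were within 1000 bp of the start of another gene, such as Lrrc26, Tmem259 and Rab1b. When each region was placed by any protein-coding gene, 58.6% of the 58 were intronic and 27.6% were within 1000 bp of a start, against 40.2% and 45% of the 9323 regions in the windows of all protein-coding genes, most of which are far shorter.

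The 12 promoter regions, within 1000 bp of a start of the member, lay at 11 genes, and 10 of them were peaks of antibody 2 alone, with the sites of Grin1 and Gria2 as the exceptions. Their central 200 bp had a median GC content of 72% (63% to 82%) and 1.00 ± 0.953 E-boxes (SD, n = 12 regions). The 33 intronic regions had a median GC content of 54.5% (39% to 72.5%) and 2.52 ± 1.35 E-boxes (SD, n = 33 regions). Of these 33, 13 were peaks of antibody 2 alone. When regions were placed by any protein-coding gene, the members had 16 promoter and 34 intronic regions, with 13 of antibody 2 alone in each, a median GC content of 71% and 54.5%, and 1.25 ± 1.24 and 2.50 ± 1.33 E-boxes (SD, n = 16 and 34 regions). Under this rule, the regions of all protein-coding genes had antibody 2 alone in 66.1% of promoter and 45.4% of intronic regions, a median GC content of 68% and 52.5%, and 1.12 ± 1.16 and 2.48 ± 1.77 E-boxes (SD, n = 4192 and 3750 regions). The difference between promoter and intronic regions was not tested.

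**Figure D4:**
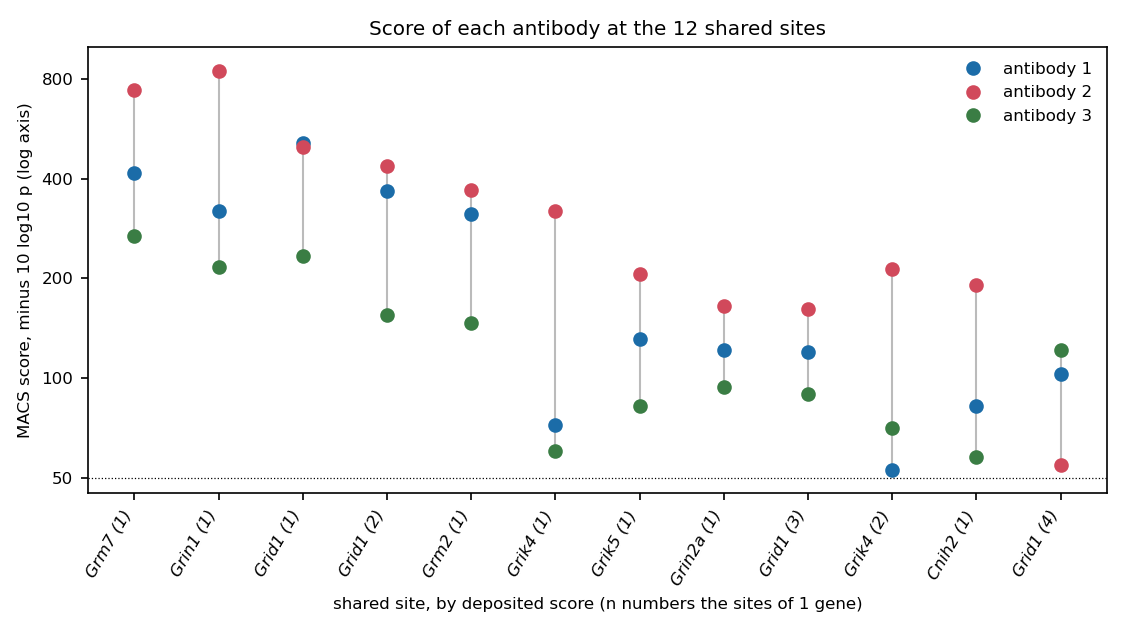
MACS score of each antibody (log axis) at the 12 shared sites, ordered by the deposited score from left to right, with sites of the same gene numbered and the dotted line at 50, the lowest score in the lists. Antibody 2 (red) is highest at 10 sites and antibody 3 (green) lowest at 10, without the same counts over all shared sites. For Grin1 the value of antibody 3 is the sum of 2 peaks.

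The deposited score of a shared site was the sum of the scores of its peaks, at all 12 sites within 0.01. On this scale Grm7 (1424), Grin1 (1382) and the highest Grid1 site (1245) led, at ranks 229, 249 and 299 of 2071. The next Grid1 site (960) and Grm2 (830) followed at ranks 471 and 593. The other 7 sites, from Grik4 (453) to the last of Grid1 (279), ranked 1368 to 1911. No site was among the highest 10% of the table and 4 were among the highest 25%, and the median of 436 was below that of all shared sites, 573. Antibody 2 had the highest score at 10 of the 12 sites and antibody 3 the lowest at 10. In 5 sites every antibody had a peak of at least 100, namely those of Grm7, Grin1 and Grm2 and the 2 highest of Grid1. The same counts by antibody over all 2071 sites are not given, so these are not read as a trait of the receptor sites. Antibody 2 had the longest list of peaks and antibody 3 the shortest.

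Over all peaks in the windows, scores were close to those of the whole lists. The median score was 103 at the 30 genes against 86.4 in the whole list for antibody 1, 87.5 against 93.9 for antibody 2, and 89.4 against 76.7 for antibody 3. Scores of at least 100 were reached by 12 of 23, 23 of 52 and 7 of 17 peaks, or 52.2%, 44.2% and 41.2%, where the lists had 42.7%, 46.4% and 34.6%.

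E-boxes were present in the central 200 bp of all 12 sites, with 2.33 ± 1.30 per site (SD, n = 12 sites) and a range from 1 to 5. All shared sites had 2.45 ± 2.03 (SD, n = 2071), and 10.6% of them had none. Windows of the same length 2000 bp from the edges had 1.00 at the 12 sites and 1.15 over all shared sites. In both sets the sites held more E-boxes than their flanks, and the difference between the sets was not tested. Among the 61 E-boxes in the full length of the 12 sites, CAGATG with its reverse CATCTG was the most frequent form with 14 (23.0%, against 27.2% over all shared sites), followed by CAGCTG with 12 (19.7%, against 21.5%). CACATG with CATGTG, as in the Grin1 and Grid1 stretches, made up 11 (18%), where all shared sites had 9.83%. Most of the 11 were in the Grin1 site and in Grid1 sites, and the others were in the Grm7 and Cnih2 sites. The match of a motif is a description of the letters and does not show which E-box NEUROD2 contacted.

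Taken as whole classes, ionotropic receptor genes carried more peaks for their length than metabotropic ones with each antibody. The windows of the 17 ionotropic genes held 3.09, 7.15 and 2.51 peaks per Mb with antibodies 1, 2 and 3, a mean of 4.25 ± 2.53 (SD, n = 3 antibodies). The 7 metabotropic genes held 1.41, 1.76 and 1.06, a mean of 1.41 ± 0.352 (SD, n = 3 antibodies). The direction was the same in 3 of 3 antibodies, and the values of all protein-coding genes, 2.75, 6.54 and 1.75, lay in between with each. Grid1 and Grik4 were left out after seeing the data, which lowers the values by construction. The other 15 ionotropic genes had 8, 23 and 7 peaks, or 2.03, 5.84 and 1.78 per Mb. These densities were still above the metabotropic ones, but below those of all protein-coding genes with antibodies 1 and 2. Against genes of similar length, ionotropic genes had 16, 37 and 13 peaks where 13.0, 25.7 and 8.12 were obtained, and metabotropic genes had 4, 5 and 3 where 6.46, 12.7 and 3.80 were obtained. The order of the classes did not hold in every subfamily. AMPA genes had 0.850, 3.40 and 0.850 peaks per Mb, below the metabotropic class with antibodies 1 and 3. Group II genes (Grm2 and Grm3) had 3.42, 6.83 and 3.42, above the ionotropic class with antibodies 1 and 3. NMDA, kainate and delta genes were above the metabotropic class with each antibody, and group I and III genes below the ionotropic class. The genes of 1 class are not replicates of each other, and no test between classes was made.

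**Figure D5:**
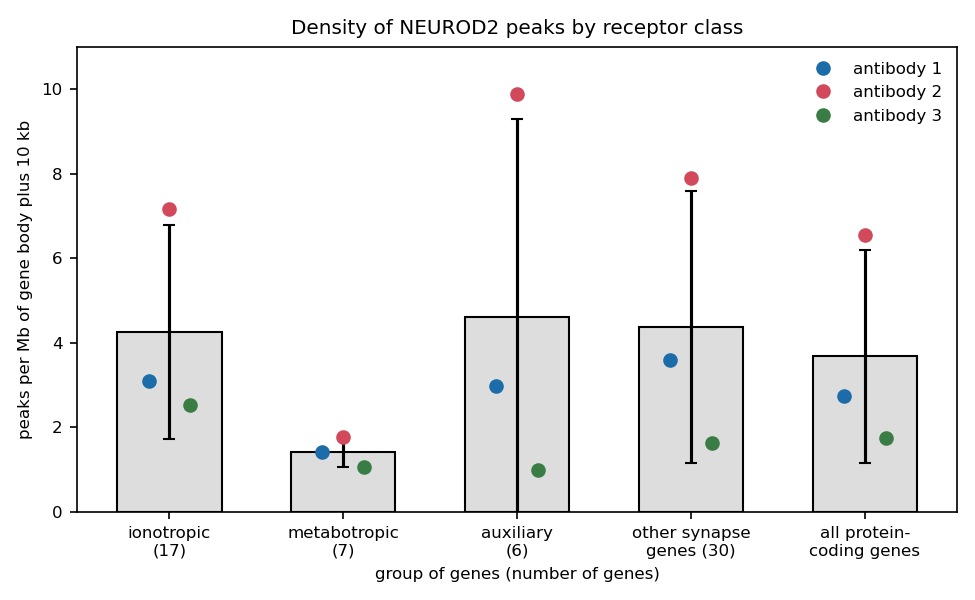
Peaks per Mb of gene body plus 10 kb for each class of genes, with 1 point per antibody, the mean as a bar and the SD over the 3 antibodies as the error bar, cut at 0 for the auxiliary genes. Each antibody has fewer peaks per Mb in metabotropic genes, 1.41, 1.76 and 1.06, than in ionotropic genes or in all protein-coding genes.

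In both classes the shared sites lay at few genes. The ionotropic class held 9, or 1.74 per Mb, of which Grid1 and Grik4 had 6, and the metabotropic class held 2, or 0.704 per Mb, 1 each at Grm7 and Grm2. When sites had to have a peak of at least 100 from every antibody, 3 ionotropic and 2 metabotropic sites were left, or 0.580 and 0.704 per Mb, and 1 of the latter was the site near Grm2 that is counted by position only. These numbers are too small to order the classes by shared sites. Auxiliary genes had 3, 10 and 1 peaks, or 2.97, 9.89 and 0.989 per Mb, too few to be placed. Densities were not scaled to the number of peaks in each list, so the SD between antibodies includes that difference. Within the ionotropic class, Grid1 had 4, 5 and 4 peaks where genes of similar length had 1.64, 2.86 and 0.89. Kainate genes had 6, 18 and 4 against 4.63, 8.82 and 2.85, and Grik4 alone had 4, 9 and 2 of the peaks. NMDA genes had 5, 10 and 4 against 3.49, 7.37 and 2.33, and Grin1 alone had 2, 2 and 2 of them. The 2 peaks of antibody 3 at Grin1 lay in 1 site, and 1 of its antibody 2 peaks lay beyond the gene, near the start of Lrrc26. Both peaks at Grin3b also lay downstream of the gene. Kainate genes without Grik4 and NMDA genes without Grin1, left out after seeing the data, were above genes of similar length with antibody 2 only. The AMPA genes, as given above, were below genes of similar length with every antibody.

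The 8 genes without a peak were Gria3, Gria4, Grin3a, Grik1, Grm3, Grm6, Neto1 and Neto2, or 26.7% of the set against 64.8% of all protein-coding genes, and genes of similar length gave 12.1. A further 6 genes (Gria1, Grin2b, Grin2d, Grin3b, Cnih3 and Grm8) had peaks of 1 antibody, which for 5 of them was antibody 2, the library with the longest list. A region of at least 2 antibodies was present at 15 genes. For these counts by number of antibodies, no value of all protein-coding genes or of genes of similar length is given. They are therefore not read as a trait of the set. Absence from a list means only that no peak passed the threshold of the authors, and it was not tested whether a deeper library would hold one.

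Other genes of the glutamatergic synapse were counted in the same way. In a list of 30 scaffold, transporter and further auxiliary subunit genes with a median length of 61.4 kb, 13, 20 and 7 had a peak of antibodies 1, 2 and 3, where genes of similar length gave 7.47, 13.3 and 5.24. A shared site was present at 6 of them (20%), where genes of similar length gave 3.76. The density was 3.59, 7.90 and 1.62 peaks per Mb. The strongest of these sites exceeded all of those at the receptor genes. It lay in intron 2 of Gsg1l, an auxiliary subunit of AMPA receptors, with a deposited score of 3686 and rank 21. Frrs1l, a factor in AMPA receptor assembly, had a promoter site (1175, rank 324), and a site 1555 bp upstream of Slc17a7, the vesicular glutamate transporter of cortical neurons, had 1087 (rank 369). The synaptic scaffold genes Grip1 (835) and Dlg4 (546) had 1 site each, and Cacng4, a relative of stargazin, had 2 in intron 1 (649 and 345).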

How the data were processed

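Per the labels and the methods of the study, single-end reads were mapped by the authors with Bowtie (mm10), and MACS then called the peaks of each library with the GFP library as control. The deposited peak lists and the deposited table of shared sites hold a score per interval, minus 10 times the log10 of p in the lists, and the table also names a gene, a transcript and a location. Scores were not scaled between antibodies. The input DNA library entered no comparison, and the details of 1 site outside a member are not reported here.

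Gene bodies of GENCODE M21 protein-coding genes (GRCm38), extended by 10 kb, were intersected with peaks (at least 1 bp). The 200 non-members closest in length, 100 on each side, gave the values of similar length. Positions within 1000 bp of a start were called promoter. E-boxes were counted in the central 200 bp. The members and lists were chosen with earlier results of these data known, so counts are given as a description, with no p-values. Named in full were members with a shared site or with a peak of at least 2 antibodies, and sequences were taken from the highest site of each subfamily. Alternatives changed the window, the score, the comparison genes, the antibodies used and, after seeing the data, single genes. Counting was tested on simulated data. Python 3.11.15, numpy 2.4.6, pandas 2.3.3 and matplotlib 3.10.9 were used.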

Additional observations from a re-analysis of the deposited data

How the results depend on the processing

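Requiring a score of at least 100 changed the values most. It left 4 genes with a shared site (5 sites, with 3.40 genes from those of similar length), 0.580 sites per Mb in ionotropic and 0 in auxiliary genes, 9, 13 and 4 genes with a peak of antibodies 1, 2 and 3, and 12, 23 and 7 peaks. Cnih2, Grik4, Grik5 and Grin2a lost their sites, and metabotropic genes stayed at 0.704 per Mb. In the gene body alone, metabotropic genes had 0.370 sites per Mb, as the site near Grm2 lies outside the gene. Leaving out Grid1 and Grik4, an alternative chosen after seeing the data, gave 0.761 per Mb for ionotropic genes. In the same way, the kainate genes without Grik4 had 2, 9 and 2 peaks against 3.62, 6.82 and 2.16 in genes of similar length, and the NMDA genes without Grin1 had 3, 8 and 2 against 3.27, 6.84 and 2.15. Leaving out genes for their many sites or peaks lowers these values by construction. Leaving out each antibody in turn gave 8 to 14 genes with a site, 12 to 20 sites, 6.20 to 9.49 genes from those of similar length, and 1.74 to 2.71, 0.704 to 1.06 and 0.989 to 2.97 sites per Mb in ionotropic, metabotropic and auxiliary genes. The highest values were those without antibody 3, the shortest list, where a site needs only antibodies 1 and 2, and all 8 genes were kept and Gria2, Grik3, Grin2c, Grm4, Shisa6 and Shisa9 were added. Further alternatives moved each value computed with them by less than 1.5 times or its spread. They were a window of 50 kb on each side, midpoints in place of overlap and, for shared sites, sites rebuilt from the peaks. Length classes and genes with windows free of other genes were used only for the genes with a shared site from those of similar length. A central window of 400 bp was used only for E-boxes. The unknown depth limits what the absence of a peak shows.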
